A study of Bos taurus with 6 samples.

Results

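The HOX genes of cattle were described here in the testes of immature calves and mature bulls. Every row of the gene table whose symbol was HOX followed by a cluster letter (A to D) and a number was taken, which gave 39 of 47249 genes. The choice used the symbols and no measured value. The HOXA cluster held 11 of them, the HOXB cluster 10, and the HOXC and HOXD clusters 9 each.

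HOX genes encode homeodomain transcription factors that lie side by side in 4 clusters. Their order along the chromosome follows the order in which they are used from the head end of the embryo to its tail end, with low paralogue numbers acting towards the head and high numbers towards the tail. Tissues keep part of this code into adult life, and the genes near the tail end of the clusters (the posterior genes) are known for their roles in the limbs, the gut end, the external genitalia and the reproductive ducts. In mice, loss of Hoxa10 or Hoxa11 disturbs the descent of the testis.

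The study sequenced total RNA from testes of untreated Wandong cattle, a Chinese breed, after ribosomal RNA had been depleted. The immature group was made of 3 calves aged 3 months and the mature group of 3 bulls aged 3 years, with 1 library per animal and no treatment in either group. The values are FPKM, fragments scaled by transcript length and by library size, which allow genes of different length to be set side by side. The study lists the clean reads of each library, and the total of calf 3 lay within the range of the others. The files give no read counts per gene, so the number of fragments behind a value is unknown. A value of 0 means only that the gene is listed at 0. Testis is a mixture of germ cells and somatic cells, and in such bulk RNA fewer cells of a type and less RNA per cell cannot be told apart.

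The library labelled calf 3 went against its label. Of 7 Leydig cell markers, none reached 1 FPKM there, and CYP11A1, CYP17A1 and HSD17B3 were listed at 0. Their summed level was 0.502 FPKM in calf 3, 1143 and 1407 FPKM in the other calves and 1484 to 2755 FPKM in the bulls. Of 12 Sertoli cell markers, GATA4, WT1, FSHR and NR5A1 were listed at 0 in calf 3 and in no other library, and the sum was 872 FPKM against 1628 and 1924 FPKM in the other calves and 327 to 405 FPKM in the bulls. The sum in calf 3 was carried by few markers. The median marker was at 0.290 FPKM there, at 23.5 and 25.5 FPKM in the other calves and at 8.22 to 8.85 FPKM in the bulls. Of the 12, 10 were lower in calf 3 than in both other calves and 2 were highest there. All 7 oligodendrocyte markers reached 1 FPKM in calf 3, with a sum of 12513 FPKM against 3.44 to 11.0 FPKM in the other 5 libraries. The sums of the neuron markers were 810 FPKM against 4.47 to 15.6 FPKM. The results are therefore given with and without this library.

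In calf 3 nearly all HOX genes were without measured RNA. There, 36 of the 39 genes were listed at 0, although 57.5% of all genes were above 0 and 31.7% reached 1 FPKM, a share close to the 30.3% and 30.8% of the other calves. The summed level of the 39 genes was 1.48 FPKM in calf 3, 59.5 and 43.5 FPKM in calf 1 and calf 2, and 58.8, 51.6 and 46.9 FPKM in bulls 1 to 3. The 3 genes above 0 in calf 3 were all from the head end or the middle of the HOXD cluster. HOXD1 stood at 1.36 FPKM, the highest of all 6 libraries, against 0.346 and 0.323 FPKM in the other calves and 0.108, 0.0729 and 0.0787 FPKM in the bulls. HOXD3 was at 0.0816 FPKM and HOXD8 at 0.0445 FPKM. Most other rows within the clusters were at 0 there too, and 3 of the 41 other rows that lie between the first and last HOX gene of a cluster were above 0 in calf 3. Among these 3, an unnamed gene between HOXD1 and HOXD3 (ENSBTAG00000048896) was at 9.77 FPKM in calf 3 and at 0.694 to 1.53 FPKM elsewhere. The assembled locus on the same stretch (XLOC_109642) was at 9.11 FPKM in calf 3 and at 0.644 to 1.22 FPKM elsewhere. Whether these 2 rows share reads was not tested.

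**Figure D1:**
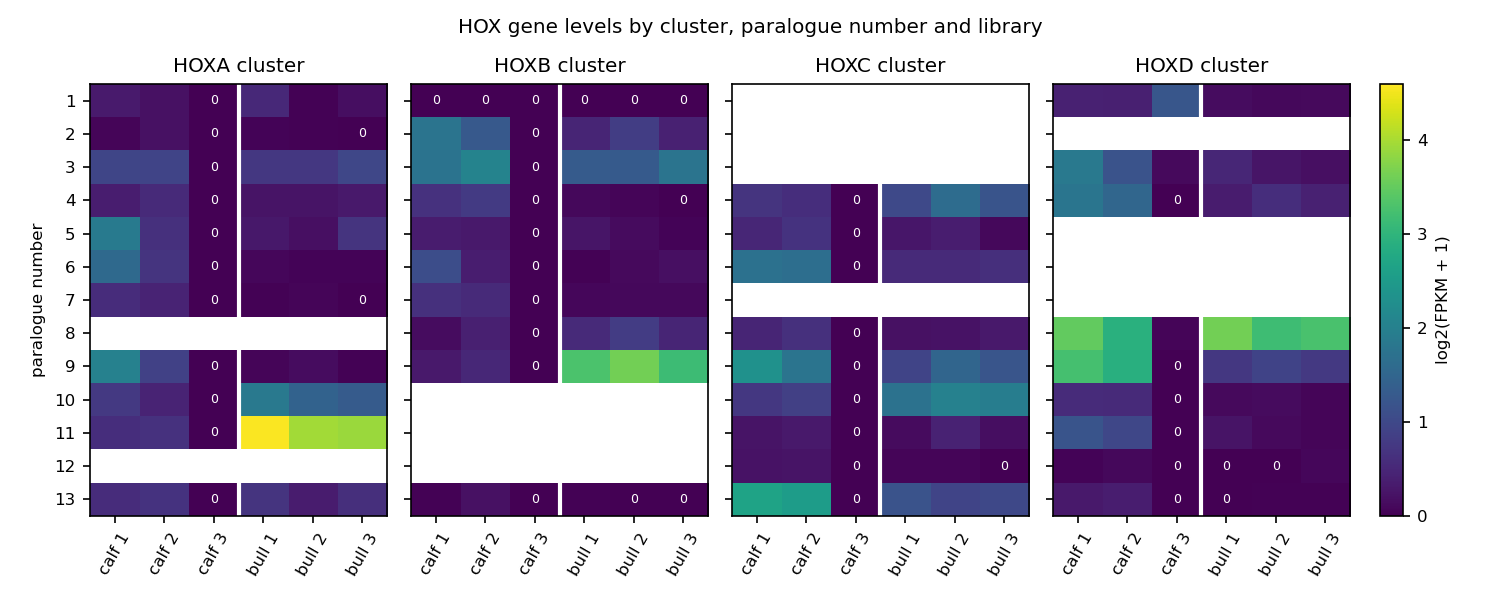
Level of each HOX gene as log2(FPKM + 1), by paralogue number (vertical axis), cluster (panels) and library (horizontal axis). White cells mark numbers that the cluster does not hold, 0 marks a gene listed at 0, and the white line parts calves from bulls. Calf 3 is at 0 in 36 of 39 genes, and HOXA11 and HOXB9 stand out in the 3 bulls.

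Calf 1 and calf 2 expressed nearly the whole HOX complement at low level. In both, 38 of 39 genes were above 0, HOXB1 being listed at 0 in all 6 libraries, and 14 and 9 genes reached 1 FPKM. The median over the 39 genes was 0.563 and 0.550 FPKM. In the bulls 36, 36 and 33 genes were above 0, 8 reached 1 FPKM in each, and the median was 0.220, 0.184 and 0.146 FPKM. The summed levels of the bulls thus lay within the range of the calves, while the median member was lower in every bull than in calf 1 and calf 2. The summed FPKM of all genes was 1066180 and 1098720 in calf 1 and calf 2 and 732130 to 776839 in the bulls. A like HOX sum was therefore a larger part of the total in the bulls. The order of the 39 levels was alike within the ages (Spearman's rho of 0.886 between calf 1 and calf 2, and of 0.905 to 0.911 between bulls) and less alike between them (0.489 to 0.629, n = 39 genes of one library pair each, which are not independent replicates).

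In calf 1 and calf 2 the HOXD cluster led. It gave 44.1% and 42.1% of the summed HOX FPKM, and HOXD8, HOXD9 and HOXC13 were the 3 highest genes, with 40.5% and 41.1% of the sum. In the bulls the HOXA cluster led with 34.7% to 47.1%, and HOXA11, HOXB9 and HOXD8 together gave 65.2% to 72.9%. The HOXD share was 19.1% to 22.2% in the bulls. Within the clusters, the highest member was HOXA9 in calf 1 and HOXA3 in calf 2 but HOXA11 in all 3 bulls. In the HOXB cluster it was HOXB2 in calf 1 and HOXB3 in calf 2 but HOXB9 in the bulls, and in the HOXC cluster HOXC13 in both calves but HOXC10 in the bulls. HOXD8 was the highest HOXD gene in all 5 libraries, and HOXD1 in calf 3. By Ensembl transcripts alone, the highest HOXB gene of the bulls was HOXB3 in bull 1 and bull 3 and HOXB2 in bull 2 (0.791, 0.956 and 0.796 FPKM), and the leader also differed for HOXA in calf 1 (HOXA5), HOXB in calf 2 (HOXB2) and HOXD in calf 2 (HOXD9).

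By position, genes 1 to 3 gave 15.1% and 17.1% of the sum in calf 1 and calf 2 and 6.02% to 8.69% in the bulls. Genes 4 to 8 gave 41.2% and 37.5% in these calves and 25.1% to 27.1% in the bulls. Genes 9 to 13 gave 43.7% and 45.4% in the calves and 64.2% to 68.9% in the bulls, and the ages did not overlap in any of these shares. The larger posterior share in bulls rested on HOXA11 and HOXB9, the 2 highest posterior genes of the bulls. With these left out, genes 9 to 13 gave 43.0% and 44.2% in the calves and 32.8% to 36.8% in the bulls. The 2 genes were picked from these values, and no posterior gene high in the calves was left out. A fall of the bull share was therefore built in, and the turn of direction is no separate result.

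**Figure D2:**
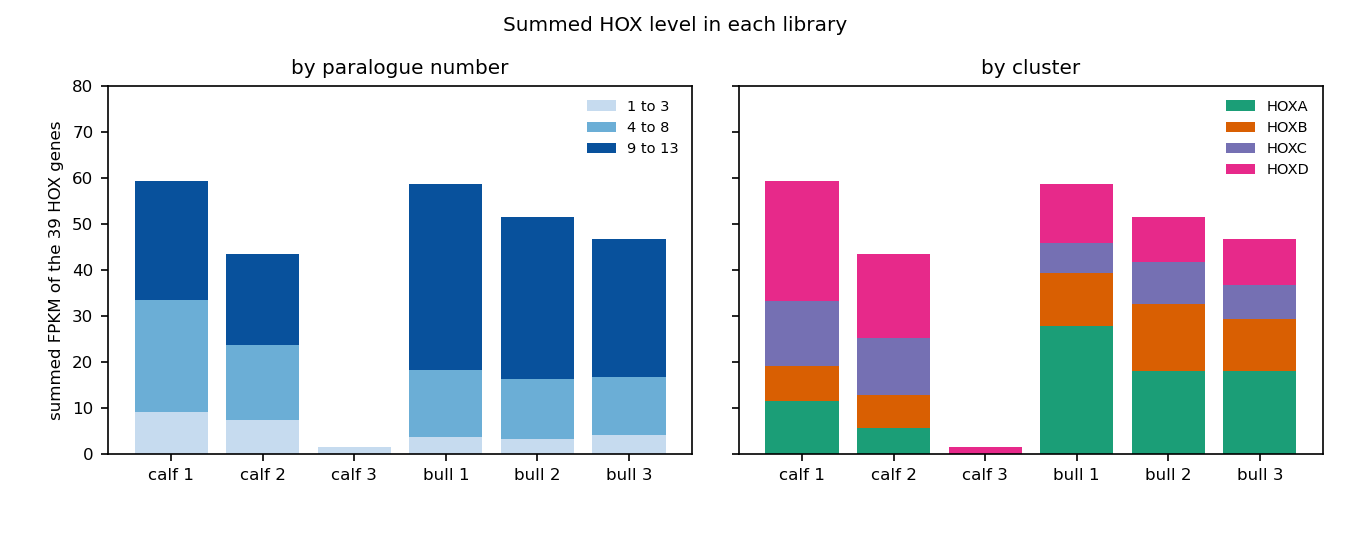
Summed FPKM of the 39 HOX genes in each library, split by paralogue number (left panel) and by cluster (right panel), with bars starting at 0. The bulls hold sums of 46.9 to 58.8 FPKM, within the range of calf 1 and calf 2, with a larger part from genes 9 to 13 and from HOXA, and calf 3 holds 1.48 FPKM. The sums are not scaled to the total FPKM of all genes, which was lower in the bulls than in calf 1 and calf 2.

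Set against calf 1 and calf 2 alone, most HOX genes were lower in the bulls. Every bull was below both calves in 24 of 39 genes (61.5%), against 23.3% of all 44287 genes above 0 in these 5 libraries. Every bull was above both calves in 6 genes (15.4%), against 43.2% of all genes. These 6 were HOXA10, HOXA11, HOXB8, HOXB9, HOXC4 and HOXC10. The median difference in log2(FPKM + 1), bull minus calf, was -0.31 over the 38 HOX genes above 0 and 0.13 over all genes. With calf 3 included it was -0.13 and 0.12. Over the same change of age the summed Sertoli cell markers went from 1628 and 1924 to 327 to 405 FPKM, the macrophage markers went from 140 and 101 to 24.8 to 29.9 FPKM, and the spermatid markers went from 4.11 to between 13753 and 15965 FPKM. Other somatic lists did not fall. The Leydig cell markers went from 1407 and 1143 to 1484 to 2755 FPKM and the peritubular muscle markers from 35.1 and 47.2 to 60.3 to 69.9 FPKM. The endothelial markers overlapped (22.3 and 8.91 FPKM against 10.7 to 15.3 FPKM). Their part in the HOX levels was not tested.

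Every bull was above both calves in 0 of 8 genes 1 to 3, 2 of 15 genes 4 to 8 and 4 of 16 genes 9 to 13. Every bull was below both in 4, 11 and 9 of them. By whole gene rows, the direction differed within several paralogue groups. In group 9, HOXB9 was higher in the bulls and HOXA9, HOXC9 and HOXD9 were lower. In group 10, HOXA10 and HOXC10 were higher and HOXD10 lower, and in group 11 HOXA11 was higher and HOXD11 lower while HOXC11 overlapped between the ages. By Ensembl transcripts alone HOXA10 was lower, and HOXB9 stayed higher at 0.191 to 0.280 FPKM against 0.0720 and 0.143 FPKM. In group 4, HOXC4 was higher and the other 3 members lower. Groups 6 and 7 were lower in all of their 5 members together. The HOXD cluster held no gene in which every bull was above both calves and 7 of 9 in which every bull was below.

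Differences between the ages were tested with limma on log2(FPKM + 1) over all genes with at least 1 FPKM in at least 3 of the 6 libraries (18115 genes), and a gene was called where its log2 fold change was 1 or more in size and its Benjamini-Hochberg adjusted p was under 0.05. Only 9 HOX genes passed the filter: HOXA10, HOXA11, HOXB3, HOXB9, HOXC4, HOXC9, HOXC10, HOXC13 and HOXD8. Since calf 3 was at or near 0, a gene high only in calves could not pass, and HOXA10, HOXA11, HOXB9, HOXC4 and HOXC10 passed through the bulls alone. With all 6 libraries, 4 HOX genes were called higher in bulls, where 35.7% of all genes tested were, and 0 were called lower by limma, where 9.61% of all genes were. No HOX gene was lower at an unadjusted p below 0.05 either (0 genes). Without calf 3 the calls on the same genes were 3 higher and 1 lower, against 37.9% and 13.6% of all genes. With calf 3 left out and genes kept at 1 FPKM in at least 2 of the remaining 5 libraries, a setting chosen after the data were seen, 14 HOX genes among 19848 genes were tested. Then 3 were called higher, against 37.7% of all genes, and 5 lower, against 13.9%. HOXB2, HOXC6, HOXD3, HOXD4 and HOXD9 passed that filter through calf 1 and calf 2 alone.

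**Figure D3:**
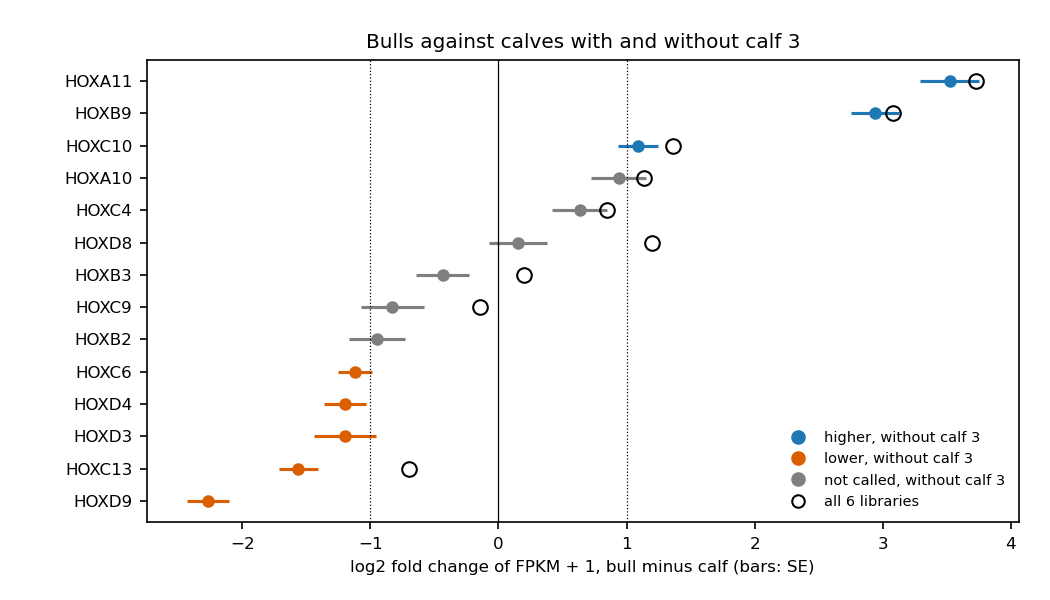
Log2 fold change of FPKM + 1, bull minus calf, of the 14 HOX genes tested without calf 3 (filled points, with SE bars) and of the 9 tested with all 6 libraries (open circles). HOXA11, HOXB9 and HOXC10 are called higher and HOXC6, HOXC13, HOXD3, HOXD4 and HOXD9 lower without calf 3, and dotted lines mark the fold change threshold.

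HOXA11, a posterior gene with roles in the limb and the reproductive ducts, showed the largest change of the cluster genes tested. Its level was 0.516, 0.571 and 0 FPKM in calves 1 to 3 and 22.8, 14.7 and 14.0 FPKM in bulls 1 to 3, so that every bull stood far above every calf. The log2 fold change was 3.73 (SE 0.29, adjusted p = 0.000120), and 3.52 without calf 3 (SE 0.23, adjusted p = 3.60e-05). The row held a single kind of transcript, the Ensembl one, whose fit gave the same fold change (adjusted p = 0.000149). The gene lies at chr4:68857431-68861055.

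HOXB9 was the second gene in size of change. It stood at 0.249, 0.422 and 0 FPKM in the calves and at 8.84, 11.3 and 7.88 FPKM in the bulls (log2 fold change 3.08, SE 0.22, adjusted p = 8.66e-05, and 2.94 without calf 3). The groups did not overlap. The transcript table assigned little of the bull level of this row to the HOXB9 messenger RNA. The Ensembl transcript of HOXB9 gave 0.0720, 0.143 and 0 FPKM in the calves and 0.191, 0.280 and 0.247 FPKM in the bulls, 2.16% to 3.13% of the row in bulls. An assembled transcript that the authors' table names HOXB9-AS2 gave 0.0139, 0.0803 and 0 FPKM in the calves and 8.19, 10.6 and 7.04 FPKM in the bulls. Its own log2 fold change was 3.20 (SE 0.20, adjusted p = 6.88e-05). It is named as an antisense RNA, a transcript read from the opposite strand to the gene, and it overlaps the Ensembl transcript in position, so that the split between them is uncertain.

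HOXC10, a gene of the hindlimb and lumbar level, was at 0.682, 0.831 and 0 FPKM in the calves and at 2.33, 3.06 and 2.85 FPKM in the bulls. Every bull was above every calf (log2 fold change 1.36, SE 0.26, adjusted p = 0.00528, and 1.09 with SE 0.15 and adjusted p = 0.000862 without calf 3). Quantile normalization, which gives all libraries the same distribution of values and moved the median of all genes tested from 0.43 to -0.26 on the log2 scale, ended this call (0.51). The change was carried by both Ensembl transcripts. The first of them (ENSBTAT00000004243) was at 0.525, 0.824 and 0 FPKM in the calves and at 1.42, 2.02 and 2.10 FPKM in the bulls. The other (ENSBTAT00000070486) was at 0.157, 0.00615 and 0 FPKM and at 0.917, 0.743 and 0.747 FPKM. The first was called with all libraries (1.01, adjusted p = 0.0173) and was below the fold threshold without calf 3 (0.76), without bull 2 (0.96), without bull 3 (0.94), with array weights (0.81) and with quantile normalization (0.23). With a pseudocount of 0.1 its adjusted p was 0.0676.

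HOXA10 was at 0.699, 0.365 and 0 FPKM in the calves and at 2.64, 1.73 and 1.50 FPKM in the bulls. It was called with all 6 libraries (log2 fold change 1.14, SE 0.24, adjusted p = 0.00871) but was below the fold threshold without calf 3 (0.94), without bull 1 (0.98) and with array weights (0.93). Quantile normalization took it to 0.15, and to 0.03 without calf 3. The Ensembl transcript went the other way. It was at 0.416 and 0.244 FPKM in calf 1 and calf 2 and at 0.137, 0.184 and 0.0608 FPKM in the bulls, too low to enter the test. The remainder, 89.4% to 96.0% of the row in bulls, came from 4 assembled transcripts named HOXA10-AS1 to HOXA10-AS4. Their levels summed to 0.283 and 0.121 FPKM in calf 1 and calf 2 and to 2.50, 1.54 and 1.44 FPKM in the bulls.

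The same held for HOXB8, a mid-cluster gene whose row was at 0.106 and 0.329 FPKM in calf 1 and calf 2 and at 0.468, 0.755 and 0.397 FPKM in the bulls. There the transcript named HOXB8-OT1, an overlapping transcript, gave 0.368, 0.741 and 0.362 FPKM in the bulls and 0 and 0.0611 FPKM in these calves. The Ensembl transcript was at 0.106 and 0.268 FPKM in the calves and at 0.101, 0.0145 and 0.0349 FPKM in the bulls. HOXA10, HOXB3 and HOXB8 were the 3 genes whose direction against calf 1 and calf 2 differed between the whole row and its Ensembl transcripts.

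**Figure D4:**
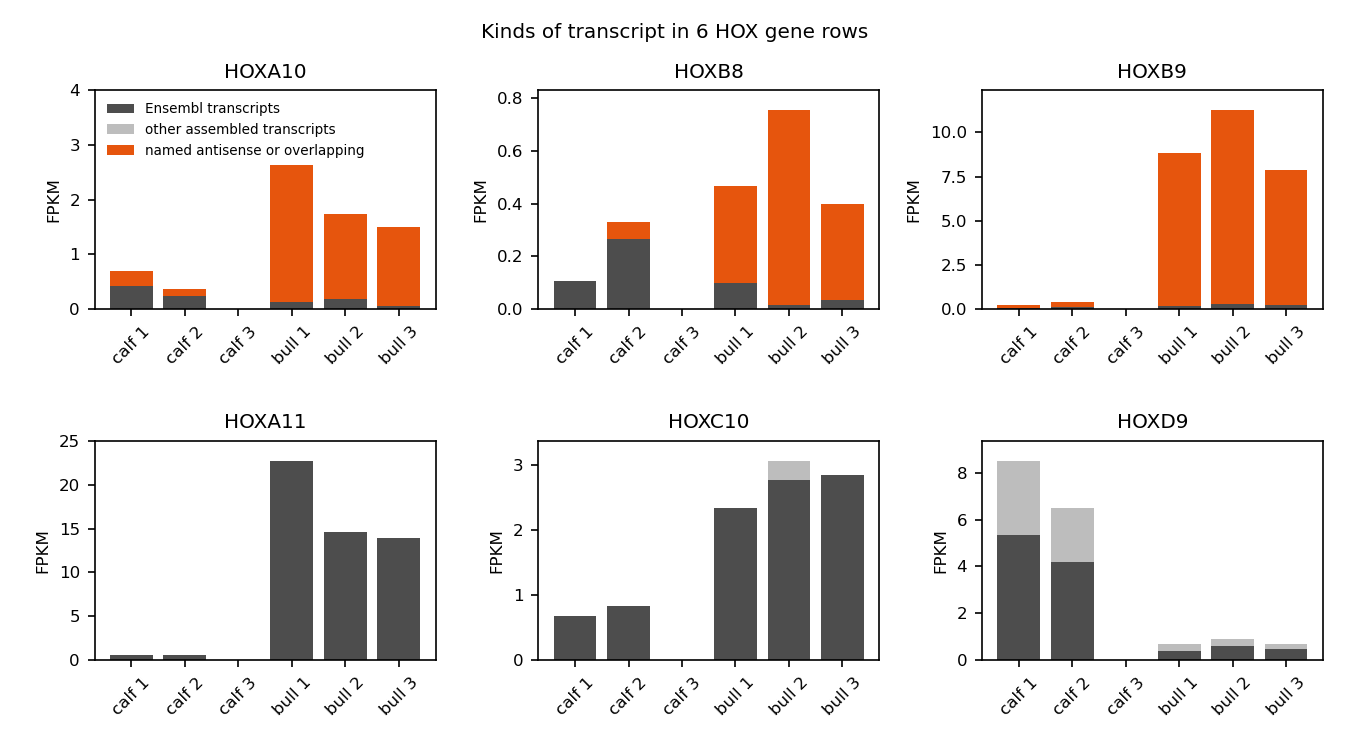
FPKM of 6 HOX gene rows in each library, split into Ensembl transcripts, other assembled transcripts and assembled transcripts named as antisense or overlapping, with a separate vertical axis from 0 in each panel. In the bulls the HOXA10, HOXB8 and HOXB9 rows consist mostly of the named antisense or overlapping transcripts, while HOXA11 and HOXC10 consist mostly of Ensembl transcripts.

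Over all 39 genes the table listed 74 transcripts, of which 45 were Ensembl transcripts, 15 were named as antisense or overlapping and 14 were other assembled ones. Antisense or overlapping transcripts made up 2.29% and 3.27% of the summed HOX FPKM in calf 1 and calf 2 and 21.6%, 27.6% and 23.9% in the bulls. Counting Ensembl transcripts alone, every bull was above calf 1 and calf 2 in 5 genes (HOXA11, HOXB3, HOXB9, HOXC4 and HOXC10) and below both in 26. Over all 24379 genes above 0 by their Ensembl transcripts in these 5 libraries, the shares were 32.0% above and 33.9% below. The share of genes 9 to 13 was then 45.5% and 50.5% in these calves and 64.0% to 68.0% in the bulls. With HOXA11 left out, again a choice made from the bull values, it was 44.8% and 49.6% against 31.0% to 40.8%. The libraries were prepared in a strand-specific way, but whether strand was used to assign fragments to these transcripts is not given in the sources used here, so the split between a gene and its antisense partner is uncertain. Of the 74 transcripts, 7 passed the filter, 3 were called higher by limma (those of HOXA11, HOXB9-AS2 and HOXC10), where 34.8% of all transcripts were, and 0 lower, where 9.37% were (0 also at an unadjusted p below 0.05). These 3 were below 1 FPKM in every calf and passed the filter through the bulls alone. A transcript high only in calf 1 and calf 2 could not pass, so the counts higher and lower cannot be set against each other.

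HOXC4, the first gene of its cluster, was at 0.618, 0.515 and 0 FPKM in the calves and at 1.02, 2.09 and 1.30 FPKM in the bulls. Every bull was above every calf, but the log2 fold change of 0.85 (SE 0.25, adjusted p = 0.0284) stayed below the threshold, and it was 0.63 without calf 3. Quantile normalization turned its sign (-0.15).

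HOXD8 was the HOX gene with the highest level common to both ages. It was at 10.2, 6.55 and 0.0445 FPKM in the calves and at 11.3, 7.97 and 8.71 FPKM in the bulls. The bulls lay within or beside the range of calf 1 and calf 2, and the fold change moved with calf 3 (1.20 with SE 0.89 and adjusted p = 0.293 with all libraries, 0.15 with SE 0.22 and adjusted p = 0.561 without it). Without calf 3 the difference was smaller than its error, which does not show that the ages are alike.

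HOXD9, the neighbour of HOXD8, had the largest fitted difference in the other direction on the log2(FPKM + 1) scale among the 14 genes tested without calf 3. It was at 8.52, 6.52 and 0 FPKM in the calves and at 0.687, 0.898 and 0.692 FPKM in the bulls. Both calves other than calf 3 were far above every bull. It did not pass the filter on all 6 libraries, and without calf 3 its log2 fold change was -2.27 (SE 0.17, adjusted p = 9.09e-05). That fit is from the setting chosen after the data were seen, whose filter HOXD9 passed through calf 1 and calf 2 alone. Its Ensembl transcript (5.33 and 4.20 FPKM in calf 1 and calf 2, 0.377, 0.599 and 0.461 FPKM in the bulls) and the assembled transcript of the row (TCONS_00164746) were both called lower in that setting, at -1.96 and -1.54. The genes lie next to each other at chr2:20778410-20784224 (HOXD8) and chr2:20785302-20791382 (HOXD9).

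**Figure D5:**
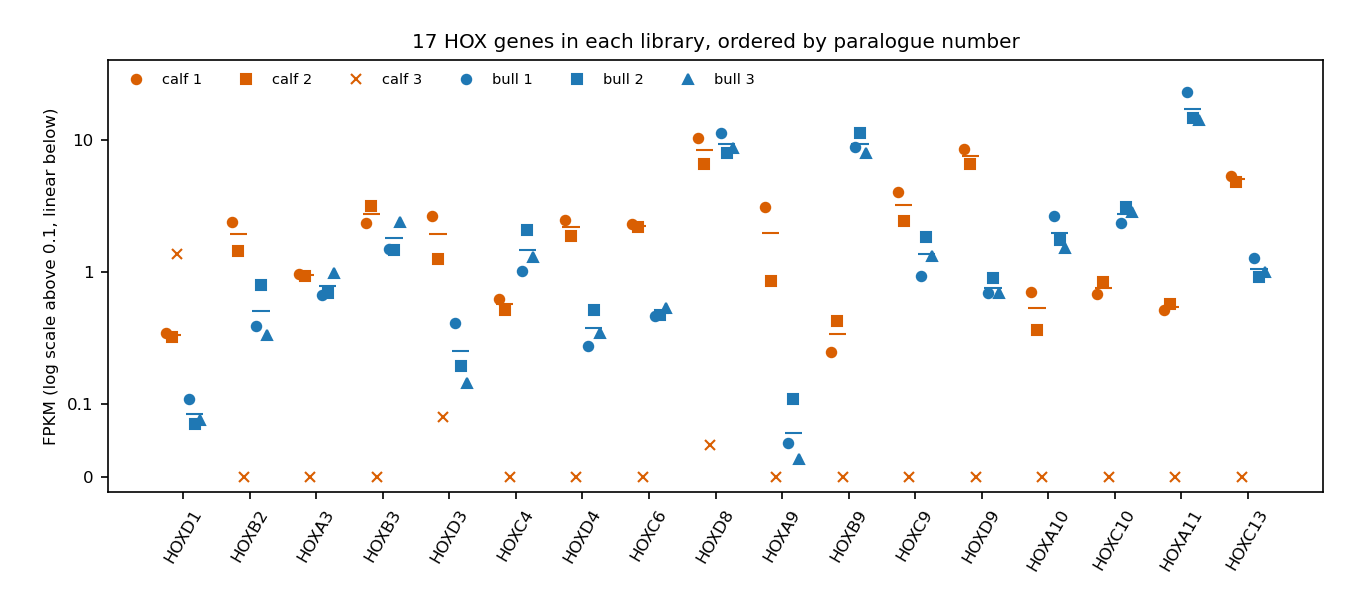
FPKM of the 17 HOX genes described one by one, ordered by paralogue number, with 1 point per library and a short line at the mean of calf 1 and calf 2 and at the mean of the bulls. The vertical axis is logarithmic above 0.1 and linear below, and the crosses of calf 3 lie at 0 for all but HOXD1, HOXD3 and HOXD8.

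HOXC13, the last gene of the HOXC cluster and known for its role in hair and nail, was at 5.34, 4.81 and 0 FPKM in the calves and at 1.26, 0.915 and 0.994 FPKM in the bulls. Its fit with all libraries was not called (-0.70, SE 0.72, adjusted p = 0.447), and without calf 3 it was called lower at -1.56 (SE 0.15, adjusted p = 0.000168). Without calf 3 it was the only HOX gene called lower among the 9 that passed the filter on all 6 libraries.

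HOXD3 and HOXD4, genes of the hindbrain and neck level, were lower in the bulls than in calf 1 and calf 2. HOXD3 was at 2.63, 1.26 and 0.0816 FPKM in the calves and at 0.411, 0.195 and 0.145 FPKM in the bulls (-1.20, SE 0.24, adjusted p = 0.00501 without calf 3). The HOXD4 row was at 2.46, 1.87 and 0 FPKM and at 0.272, 0.515 and 0.344 FPKM (-1.20, SE 0.16, adjusted p = 0.00105 without calf 3). Most of that row in calf 1 and calf 2 came from an assembled transcript (TCONS_00164738) that reaches into the HOXD3 row, at 2.06 and 1.44 FPKM. The Ensembl transcript of HOXD4 was at 0.403 and 0.427 FPKM in these calves and at 0.142, 0.375 and 0.174 FPKM in the bulls, a smaller difference. The rows of these 2 genes overlap by 11026 bases, so their values are not independent. Both fits are from the setting chosen after the data were seen, whose filter both genes passed through calf 1 and calf 2 alone.

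HOXC6, a gene of the thoracic level, was at 2.29, 2.18 and 0 FPKM in the calves and at 0.462, 0.467 and 0.530 FPKM in the bulls. Its change of -1.12 (SE 0.13, adjusted p = 0.000576 without calf 3) was called lower. That fit is from the setting chosen after the data were seen, whose filter HOXC6 passed through calf 1 and calf 2 alone. HOXC9 was at 4.02, 2.41 and 0 FPKM in the calves and at 0.925, 1.83 and 1.32 FPKM in the bulls. It was below the fold threshold without calf 3 (-0.83, SE 0.24, adjusted p = 0.0206) and at -0.15 with all libraries (adjusted p = 0.852). With quantile normalization or a pseudocount of 0.1, both without calf 3 in the setting chosen after the data were seen, it was called lower (-1.54 and -1.19).

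HOXB2 and HOXB3, genes of the hindbrain, were the highest HOXB genes of calf 1 and calf 2 by whole gene rows. HOXB2 was at 2.40, 1.44 and 0 FPKM in the calves and at 0.386, 0.796 and 0.333 FPKM in the bulls. Its change without calf 3 stayed just under the fold threshold (-0.95, SE 0.22, adjusted p = 0.00922), and it was past it with quantile normalization (-1.54). Both values are from the setting chosen after the data were seen, whose filter HOXB2 passed through calf 1 and calf 2 alone. HOXB3 was at 2.36, 3.15 and 0 FPKM in the calves and at 1.50, 1.47 and 2.40 FPKM in the bulls. The ages overlapped, and the sign of its fold change turned with calf 3 left out (0.20 with it, -0.44 without it, neither called). The Ensembl transcript of HOXB3 was at 0.740 and 0.730 FPKM in calf 1 and calf 2 and at 0.791, 0.747 and 0.956 FPKM in the bulls. It made up 31.4% and 23.2% of the row in these calves and 39.9% to 52.9% in the bulls.

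In the HOXA cluster, HOXA9 was at 3.07, 0.845 and 0 FPKM in the calves and at 0.0462, 0.109 and 0.0251 FPKM in the bulls. It reached 1 FPKM in calf 1 alone and entered neither test, and calf 1 and calf 2 were both above every bull. HOXA3 was at 0.956, 0.933 and 0 FPKM in the calves and at 0.672, 0.686 and 0.983 FPKM in the bulls, and the ages overlapped. The HOXA3 row overlaps those of HOXA4, HOXA5 and HOXA6, whose values are therefore uncertain, as are those of HOXD10 and HOXD11.

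The remaining 22 HOX genes were low. Their highest level was 2.65 FPKM in calf 1 (HOXA5, which was at 0.550 FPKM in calf 2), 0.972 FPKM in calf 2 (HOXD11) and 0.606 to 0.755 FPKM in the bulls. In calf 1, HOXA5, HOXA6, HOXB6 and HOXD11 reached 1 FPKM, and in calf 2, calf 3 and the bulls none of the 22 did. All 22 were listed at 0 in calf 3. Every bull was below calf 1 and calf 2 in 15 of them, above both in 1 (HOXB8), and the ages overlapped in 6, where 23.3% of all genes were below and 43.2% above. HOXB13, known as a gene of the prostate, was at 0.0244 and 0.157 FPKM in calf 1 and calf 2 and at 0.0144, 0 and 0 FPKM in the bulls. HOXA13 and HOXD13, which act together in the digits and external genitalia, were at most 0.620 and 0.290 FPKM in any library.

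Other rows inside the clusters also differed between libraries. Of the 41 rows, 7 were Ensembl genes without a symbol, 16 were RNA families from Rfam, 12 were assembled loci and 6 were microRNA genes, and 7 rows reached 1 FPKM in at least 2 libraries. The row of bta-mir-10b, a microRNA gene beside HOXD4 (chr2:20762743-20776805), was at 7.83, 4.99 and 0 FPKM in the calves and at 0.363, 0.635 and 0.984 FPKM in the bulls. That row spans far more than a microRNA hairpin, so its value is that of the longer transcript. An assembled locus at the start of the HOXB8 row (XLOC_097202) was at 0, 0.107 and 0 FPKM in the calves and at 3.28, 3.56 and 3.61 FPKM in the bulls. An assembled locus behind HOXC10 (XLOC_195480) was at 0.406, 0.179 and 0 FPKM and at 2.52, 3.08 and 2.39 FPKM. The Rfam row RF01976 in the HOXA cluster was at 0.402, 0.398 and 0 FPKM and at 2.29, 0.101 and 1.92 FPKM, with the ages overlapping.

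Genes next to the clusters did not share one direction. Of 21 flanking genes tested, 3 were called higher and 2 lower with all libraries, and 2 and 3 without calf 3. Of all genes, 35.7% and 9.61% were called with all libraries and 37.9% and 13.6% without calf 3. TTLL6, which encodes a tubulin-modifying enzyme 26.5 kb from the HOXB cluster, was at 0.104, 0.139 and 0 FPKM in the calves and at 9.83, 9.10 and 10.5 FPKM in the bulls (log2 fold change 3.32, SE 0.15, adjusted p = 1.77e-05). It passed the filter through the bulls alone, being below 1 FPKM in every calf. HNRNPA1, beside the HOXC cluster at 192 kb, was called lower at -2.23 with all libraries and at -3.0 without calf 3. ATP5MC2 was lower at -1.95 and -2.50, while LNPK, near HOXD, and SMUG1, near HOXC, were called only without calf 3 (1.43 and -1.15). SKAP1 (1.36) and JAZF1 (1.15) were called higher only with all 6 libraries. EVX2, a homeobox gene 7.27 kb from the HOXD cluster, was at 0.258, 0.250 and 0 FPKM in the calves and at 0.772, 0.812 and 0.854 FPKM in the bulls.

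HOX proteins bind DNA with TALE homeodomain partners (PBX, MEIS and PKNOX proteins), a class that also holds the TGIF repressors. All 11 listed members were tested. With all libraries, 2 were called higher and 2 lower, against 35.7% and 9.61% of all genes, and without calf 3 the counts were 2 and 4, against 37.9% and 13.6%. PBX4 was at 0.425, 0.455 and 0.314 FPKM in the calves and at 14.4, 13.5 and 11.4 FPKM in the bulls (3.33, SE 0.17, adjusted p = 2.73e-05). It was below 1 FPKM in every calf and passed the filter through the bulls alone. PKNOX1 was at 6.76, 5.24 and 4.72 FPKM in the calves and at 37.1, 37.8 and 36.6 FPKM in the bulls (2.55, SE 0.17). MEIS3 was called lower (-1.62), and PBX2 (-1.22) and TGIF1 (-1.84) were called lower only without calf 3. None of the 11 was listed at 0 in calf 3, in contrast to the HOX genes themselves.

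Polycomb proteins keep HOX genes silent and trithorax proteins keep them active. Of 30 such regulators tested, 11 were called higher and 5 lower with all libraries, against 35.7% and 9.61% of all genes. Without calf 3 the counts were 9 and 2, against 37.9% and 13.6% of all genes. The share called higher with all libraries was thus close to that of all genes. The largest rises were those of PCGF1 (2.39), EZH2, the H3K27 methyltransferase (2.35), WDR5 (2.20) and CBX7 (2.11). EZH2 was at 11.1, 10.9 and 9.21 FPKM in the calves and at 54.9, 57.9 and 58.2 FPKM in the bulls. CBX6 (-2.12), the H3K27 demethylase KDM6A (-1.21), the trithorax methyltransferase KMT2A (-1.15) and ASH1L (-1.09) were among the 5 that fell. Of these 5, CBX6 and KDM6A were also called without calf 3, and the calls of BMI1 (1.0) and PCGF6 (1.05), both higher, were lost with it. No regulator was listed at 0 in calf 3.

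Retinoic acid, CDX proteins and GDF11 set HOX levels in the embryo. Of 12 such genes tested, 3 were called higher and 0 lower by limma with all libraries (1 was lower at an unadjusted p below 0.05), against 35.7% and 9.61% of all genes. ALDH1A2, which makes retinoic acid, was at 14.4, 13.3 and 0.127 FPKM in the calves and at 93.0, 98.1 and 84.7 FPKM in the bulls (3.88, SE 1.02, adjusted p = 0.0194, and 2.64 without calf 3). RARB, a retinoic acid receptor whose gene is itself a target of the hormone, rose by 1.47, and CYP26A1, which breaks retinoic acid down, by 1.28. ALDH1A3 was called lower only without calf 3 (-1.13). CDX1, CDX2 and CDX4 were at most 0.553 FPKM in any library and listed at 0 in calf 3. GDF11 was at 94.5 FPKM in calf 3 and at 0.526 to 0.816 FPKM in the other 5 libraries.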

How the data were processed

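Total RNA of 6 testes was sequenced after ribosomal depletion. The authors deposited FPKM values per gene and per transcript. Per the methods of the study, ribosomal reads were removed with Bowtie2, reads were mapped with TopHat2 and transcripts assembled with StringTie, and the tool that gave the gene FPKM is not given in the sources used here. The methods name the UMD3.1.1 genome, but all 39 HOX rows overlapped the gene of the same symbol in a RefSeq table of ARS-UCD2.0, so positions are those of the files. The number of fragments behind each value is unknown, and the number of animals limits the precision. Replicates were separate animals.

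Groups came from the labels. Values were compared with limma 3.58.1 (R 4.3.3) on log2(FPKM + 1), with a trended prior, over all genes or transcripts at 1 FPKM in at least 3 libraries, two-sided. Alternatives were another pseudocount, filters, scalings, array weights, a replicate block and each library left out. The fits were tested on simulated data. A HOX gene was described with all values if it reached 1 FPKM in at least 2 libraries, was called, or led its cluster in any library. From the other lists, called genes were named, at most 4 per direction, with those whose call changed without calf 3, and some genes are not reported here. The members, lists and tests were chosen with earlier results of these data known.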

Additional observations from a re-analysis of the deposited data

How the results depend on the processing

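The values rest on 3 animals a group, on FPKM without counts and on a filter that calf 3 makes uneven, and the cause of each change below was not tested. The 4 HOX genes called higher became 2 in number with quantile normalization (with or without calf 3), where 21.1% of all genes were called higher. Leaving out 1 library gave 3 to 4, where 33.3% to 37.9% of all genes were. With calf 3 left out and 1 FPKM in at least 2 of the 5 libraries, 3 were higher, where 37.7% of all genes were. With a pseudocount of 0.1 in that setting 5 were higher, where 42.6% of all genes were. HOX genes called lower numbered 1 with array weights, where 13.6% of all genes were lower. They numbered 0 to 1 with 1 library left out (1 without calf 3), where 6.72% to 13.6% were. They numbered 5, 8 and 7 with the setting chosen after the data were seen, alone, with quantile normalization and with a pseudocount of 0.1, where 13.9%, 28.5% and 18.3% of all genes were lower. HOX transcripts called higher numbered 2 to 3 under every setting run, where 8.37% to 40.2% of all transcripts were. Those called lower numbered 1 with array weights, where 13.3% of all transcripts were lower. They numbered 0 to 1 with 1 library left out, where 6.43% to 13.1% were. With those settings, 6, 9 and 8 of the 13 tested were called lower, against 13%, 27% and 16.9% of all transcripts. The Ensembl transcripts of HOXB2, HOXD3 and HOXD9, among others, passed the filter of those settings through calf 1 and calf 2 alone. The sign turned for HOXC4 with quantile normalization (-0.15, and -0.29 without calf 3), for HOXD8 with both (-0.39), for HOXC9 with a pseudocount of 0.1 (0.48), without calf 1 (0.34) and without calf 2 (0.06, range over libraries left out -0.83 to 0.34), and for HOXB3 with quantile normalization (-0.71, and -1.14 without calf 3), array weights (-0.41), without calf 3 (-0.44, range over libraries left out -0.44 to 0.59) and that with a pseudocount of 0.1 (-0.62).

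Quantile normalization, with which 21.1% of all genes were called higher and 25.1% lower, gave 5 TALE partners lower, 5 Polycomb and trithorax regulators higher and 9 lower, 1 upstream gene higher and 2 lower, and 1 flanking gene higher and 7 lower. A pseudocount of 0.1 gave 1 upstream and 4 flanking genes lower, where 12.2% of all genes were. Median ratio scaling gave 1 upstream gene lower, where 11% of all genes were. Array weights gave 4 TALE partners and 2 regulators lower, where 13.6% of all genes were. Without calf 3 and at 2 of 5 libraries, 4 TALE partners, 2 regulators and 1 upstream gene were lower, where 13.9% of all genes were. With 1 library left out the ranges were 2 to 4 for TALE partners lower, 2 to 5 for regulators lower, 0 to 1 for upstream genes lower, 1 to 4 for flanking genes higher and 0 to 3 for flanking genes lower. In the same fits 33.3% to 37.9% of all genes were called higher and 6.72% to 13.6% lower.

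Animals of the same number were not paired: their deviations correlated at 0.028, 0.025 and 0.034. With the replicate number as a block, 4 HOX genes were called higher and 0 lower, where 35.5% and 9.33% of all genes were. The regulators called lower went from 5 to 3.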

Other observations

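Homeobox genes outside the clusters were listed too. Of 13 HOX-related genes elsewhere in the genome (the CDX, EVX, GBX, GSX, MEOX, MNX and PDX families), 8 were listed at 0 in calf 3, where 57.5% of all genes were above 0. The summed level of the 13 was 0.738 FPKM there, 6.02 and 7.14 FPKM in calf 1 and calf 2 and 1.74 to 2.05 FPKM in the bulls. Values of 0 were not particular to calf 3. GSX1, GSX2 and CDX4 were at 0 in bull 1, GSX1, GSX2, PDX1, CDX2, CDX4 and GBX1 in bull 2, and GSX1, PDX1, CDX1, CDX4 and GBX1 in bull 3. Of 16 homeobox and forkhead genes of the head listed, SIX6 was the only one listed at 0 in calf 3, and SIX3, a gene of the forebrain and eye, was at 17.1 FPKM there and at 0 to 0.171 FPKM in the other 5 libraries. Of the 16, 8 were highest in calf 3 and 8 were lower there than in calf 1 and calf 2. With all libraries LHX2 was called higher in bulls by limma (log2 fold change 2.64) and PAX6 lower (-1.41), and both calls held without calf 3.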
